A study of Homo sapiens with 4 samples.

Results

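Aminoacyl-tRNA synthetases are the enzymes that join each amino acid to its tRNAs, the step that supplies ribosomes with charged tRNA. The 39 genes described here, of 25192 genes in the deposited tables, encode 20 cytosolic synthetase chains, 3 scaffold proteins and 16 mitochondrial synthetases. The scaffold genes are AIMP1, AIMP2 and EEF1E1, and the mitochondrial genes have symbols that end in 2. Members were found by an exact match of the gene symbol in every table. Symbols are those of the tables, so that WARS is the gene now called WARS1. All 39 members passed the filter on low counts that left 14099 genes for testing.

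RNA was sequenced from A549 cells, an established human lung adenocarcinoma line. Cells of 2 libraries had been transduced with the control empty virus (EV), a retrovirus that expresses GFP alone. Cells of the other 2 libraries had been transduced with the FCN3 virus, which expresses the lectin FCN3 with a V5 tag together with GFP. Both groups therefore carry a virus and GFP, and RNA was taken 48 h after infection. Each group has a replicate 1 and a replicate 2, and nothing in the labels says that they were separate cultures, so p-values measure the spread between these libraries, which may be technical.

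FCN3 was at 0.0274 and 0 TMM-normalized counts per 1000000 (CPM) in the EV libraries and at 21297 and 22541 CPM in the FCN3 libraries. Library totals ranged from 16353554 to 35733735 expected counts, replicate 1 being the deeper library in both groups. Epithelial KRT8, KRT18 and AKR1B10 were at 1131 to 3027 CPM in every library, whereas EPCAM fell from 2.25 and 3.11 to 1.00 and 1.46 CPM. KRT19 rose from 23.1 and 37.5 to 67.3 and 74.4 CPM, AKR1C2 fell from 1309 and 1710 to 932 and 998 CPM, and CDH1, at 15.4 and 24.4 against 9.23 and 18.4 CPM, fell with overlapping groups. With the replicate number as a block edgeR called all 7 of these epithelial genes at an FDR of 0.01. KRT8, KRT18, AKR1B10 and KRT19 were called higher and EPCAM, AKR1C2 and CDH1 lower, against 19.1% and 17.1% of all tested genes. The groups of KRT8 and KRT18 also overlapped. Without the block edgeR called none of the 7, against 0.738% of all tested genes higher and 0.227% lower. Their part in the other results was not tested. The blood, endothelial and fibroblast markers PTPRC, CD3E, PECAM1, VWF, COL1A2 and DCN were at 0.118 CPM or below. CD68, also listed for blood, rose from 31.0 and 33.0 to 61.7 and 48.8 CPM. The alveolar type II markers SFTPC, SFTPB and NKX2-1 were at 0.0295 CPM or below. ABCA3, of the same list, rose from 56.6 and 59.9 to 79.3 and 76.9 CPM. Both rises were called with the block (19.1% of all tested genes) and neither without it (0.738%).

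In the cytosol several synthetases are held with the 3 scaffold proteins in the multi-synthetase complex, whereas the others act outside it. The mitochondrial enzymes are encoded in the nucleus and charge the tRNAs that translate mitochondrial mRNAs. Phosphorylation of the initiation factor eIF2, by PERK in stress of the endoplasmic reticulum (ER) or by GCN2 when uncharged tRNA accumulates, raises translation of the transcription factor ATF4. ATF4 binds C/EBP-ATF response elements as a dimer with C/EBP family proteins, and cytosolic synthetase genes are among its known targets.

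The core of that element, TGATGNAA, was searched on both strands of the RefSeq promoters of build GRCh38.p14, each 300 bases long, from 250 before to 50 after the start. Promoters of 33 of the 39 members were matched. The matches are shown because they fall in 5 cytosolic members that rose and in 1 mitochondrial member. Capitals mark the match, and each window is read 5′ to 3′ along the gene's strand:
AARS (alanyl), chr16:70289675-70289704, minus strand: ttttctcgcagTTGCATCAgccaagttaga
GARS (glycyl), chr7:30594834-30594863, plus strand: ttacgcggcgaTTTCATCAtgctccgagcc
IARS (isoleucyl), chr9:92293692-92293721, minus strand: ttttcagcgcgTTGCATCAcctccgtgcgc
MARS (methionyl), chr12:57488053-57488082, plus strand: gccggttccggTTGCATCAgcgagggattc
NARS (asparaginyl), chr18:57621804-57621833, minus strand: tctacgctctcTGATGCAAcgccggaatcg
YARS2 (mitochondrial tyrosyl), chr12:32756076-32756105, minus strand: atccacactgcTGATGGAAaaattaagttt

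The table's start of GARS lies 143 bases inside the outermost start of the gene in RefSeq, and that of the other 4 cytosolic genes at it. Gene places from GENCODE can begin at other bases, as that of MARS does. The 5 cytosolic matches began at -187 (AARS), -33 (GARS), -13 (IARS), -4 (MARS) and 14 (NARS) bases from the start base. A second motif, the unfolded protein response element core TGACGTGG, bound by the ER stress factors ATF6 and XBP1, was found in 1 member, CARS (cysteinyl). Its window is shown because CARS was among the members that rose most and has no match to the first motif:
CARS, chr11:3040935-3040964, minus strand: tgggaaaaaggTGACGTGGtattgctgtgg
The table's start of CARS lies 16439 bases inside the outermost start of the gene in RefSeq.

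Of the 39 members, 12 rose and 6 fell in the FCN3 libraries at an FDR of 0.01 when the replicate number was kept as a block, and all 12 that rose were cytosolic synthetases. Of all tested genes, 19.1% rose and 17.1% fell in the same fit by edgeR's quasi-likelihood test. Among the 10160 tested genes at or above the lowest average level of any member, 21.9% rose. Without the block, 5 members rose (WARS, SARS, AARS, CARS and GARS) and none fell, against 0.738% and 0.227% of all tested genes. In that fit 14 members had an unadjusted p under 0.05, 3 of them lower in the FCN3 libraries, against 13.6% of all tested genes higher and 11.6% lower at that p. DESeq2 without the block called 11 members higher, all cytosolic, and 0 lower, against 4.52% and 3.42% of the genes with an adjusted p. With the block DESeq2 called 11 members higher and 2 lower, against 8.45% and 8.21%.

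The 20 cytosolic genes divided into 12 that rose, 4 that fell and 4 that were not called. Their median log2 fold change was 0.46, within a range of -0.23 to 1.80, and the median over all tested genes was 0.015. The FCN3 libraries were the higher in 13 cytosolic genes and the lower in 5, with no overlap of the groups, and in 2 genes the groups overlapped. Over all tested genes these shares were 28% above and 26.5% below. A rise of at least 0.5 on the log2 scale was called in 9 of the 20, against 8.84% of all tested genes.

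**Figure D1:**
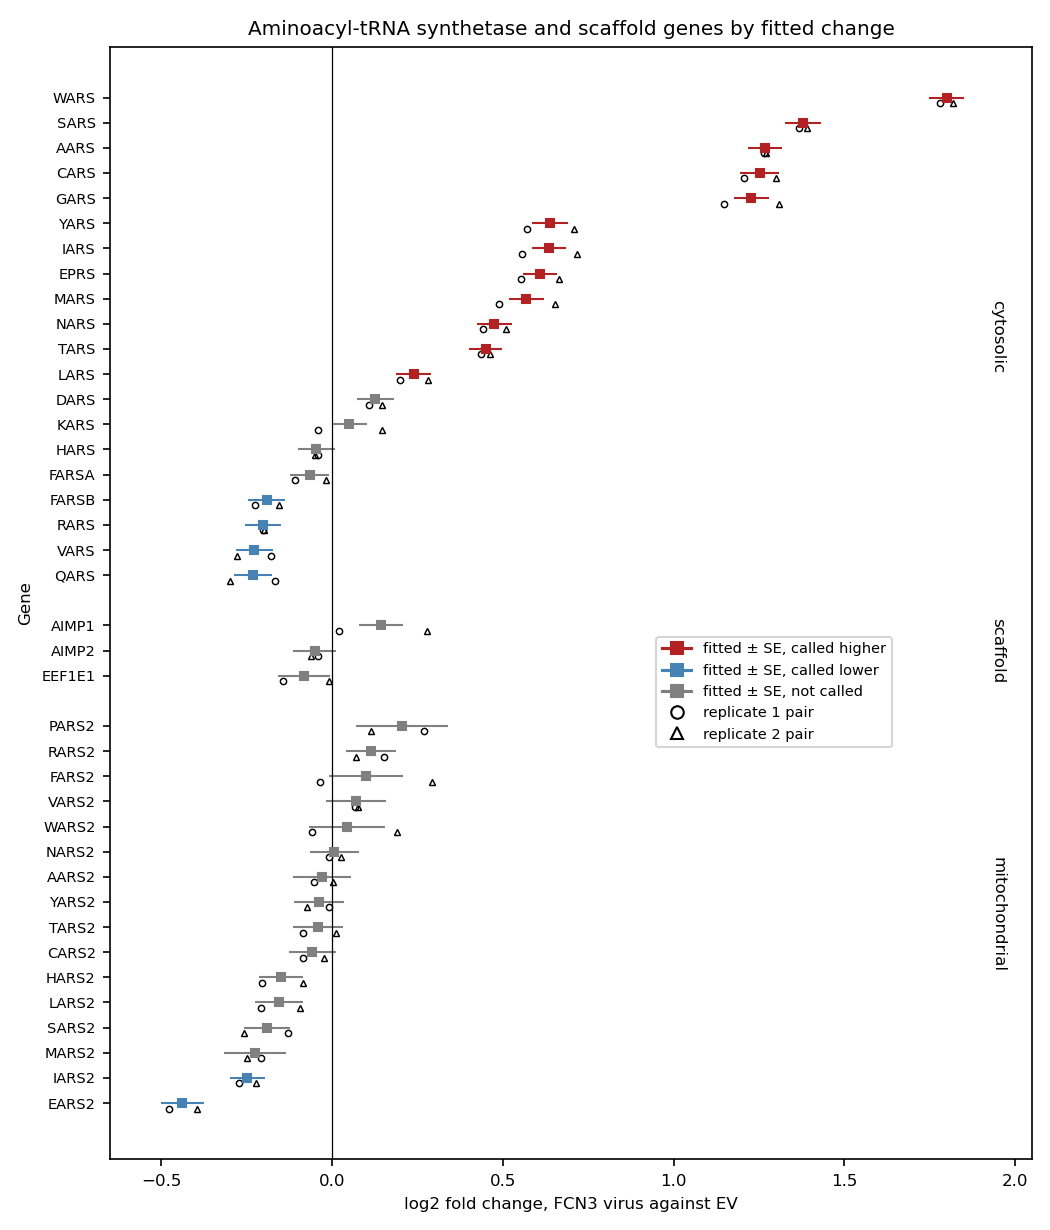
Fitted log2 fold change of the 39 members, FCN3 virus against EV (horizontal axis), by gene (vertical axis). Squares with bars give the fitted value ± SE, open circles and triangles the change within the replicate 1 and replicate 2 pairs, and colours the call at an FDR of 0.01 with the replicate block; WARS lies farthest to the right at 1.80 and the mitochondrial genes spread from -0.44 to 0.21.

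WARS encodes the cytosolic tryptophanyl-tRNA synthetase (GRCh37 chr14:100800127-100843142, minus strand). It was at 150 and 145 CPM in the EV libraries and at 515 and 512 CPM in the FCN3 libraries. The groups lay far apart and the libraries within each group nearly coincided. The fitted log2 fold change was 1.80 ± 0.05 (SE), a 3.48-fold rise (edgeR with block, adjusted p = 2.78e-34, and 0.00123 without the block).

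SARS, the seryl-tRNA synthetase, is on chromosome 1 (GRCh37 chr1:109756540-109780804, plus strand). It was at 106 and 108 CPM in EV and at 273 and 282 CPM in FCN3 libraries. It rose 2.6-fold, by 1.38 ± 0.05 on the log2 scale (edgeR with block, adjusted p = 1.76e-28, and 0.00262 without the block). AARS, the alanyl-tRNA synthetase (GRCh37 chr16:70285886-70323610, minus strand), was at 307 and 295 CPM in EV and at 738 and 713 CPM in FCN3 libraries. Its log2 fold change was 1.27 ± 0.05, a 2.41-fold rise (edgeR with block, adjusted p = 3.09e-28, and 0.00296 without the block). The change within the replicate 1 pair and within the replicate 2 pair of AARS was 1.27 in both.

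CARS, the cysteinyl-tRNA synthetase (GRCh37 chr11:3022152-3078843, minus strand), had the lowest EV level of the cytosolic genes per length, at 54.1 and 52.3 transcripts per 1000000 (TPM). In normalized counts it was at 70.5 and 68.5 CPM in EV and at 163 and 169 CPM in FCN3 libraries. The rise was 2.38-fold, 1.25 ± 0.06 on the log2 scale (edgeR with block, adjusted p = 1.97e-25, and 0.00303 without the block). GARS, which encodes both the cytosolic and the mitochondrial glycyl-tRNA synthetase (GRCh37 chr7:30620149-30673649, plus strand), was at 229 and 206 CPM in EV and at 507 and 511 CPM in FCN3 libraries. It rose by 1.23 ± 0.05 on the log2 scale (edgeR with block, adjusted p = 7.48e-27, and 0.00398 without the block). In all 5 of these genes the lower FCN3 library lay above the higher EV library.

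YARS, the tyrosyl-tRNA synthetase, was at 162 and 144 CPM in EV and at 240 and 236 CPM in FCN3 libraries. Its log2 fold change of 0.64 ± 0.05 was called with the block but not without it (edgeR, adjusted p = 4.77e-15 and 0.0206). NARS, the asparaginyl-tRNA synthetase, was at 218 and 204 against 297 and 290 CPM, a rise of 0.47. TARS, the threonyl-tRNA synthetase, was at 315 and 284 against 427 and 392 CPM, a rise of 0.45. Both changes were called with the block only, and neither gene's groups overlapped.

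The other free cytosolic genes were level or lower. FARSA and FARSB encode the 2 chains of phenylalanyl-tRNA synthetase. FARSB was at 141 and 135 CPM in EV and at 121 and 122 CPM in FCN3 libraries, and fell by 0.19 on the log2 scale with the block. FARSA was at 109 and 101 against 101 and 99.3 CPM, with overlapping groups and a log2 fold change of -0.07 that was not called. VARS, the valyl-tRNA synthetase, was at 132 and 122 against 117 and 100 CPM and fell by 0.23. HARS, the histidyl-tRNA synthetase, was at 112 and 113 against 109 and 110 CPM (log2 fold change -0.05, not called). The falls of FARSB and VARS were called in the edgeR fit with the block, and not without it or by DESeq2 with it.

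**Figure D2:**
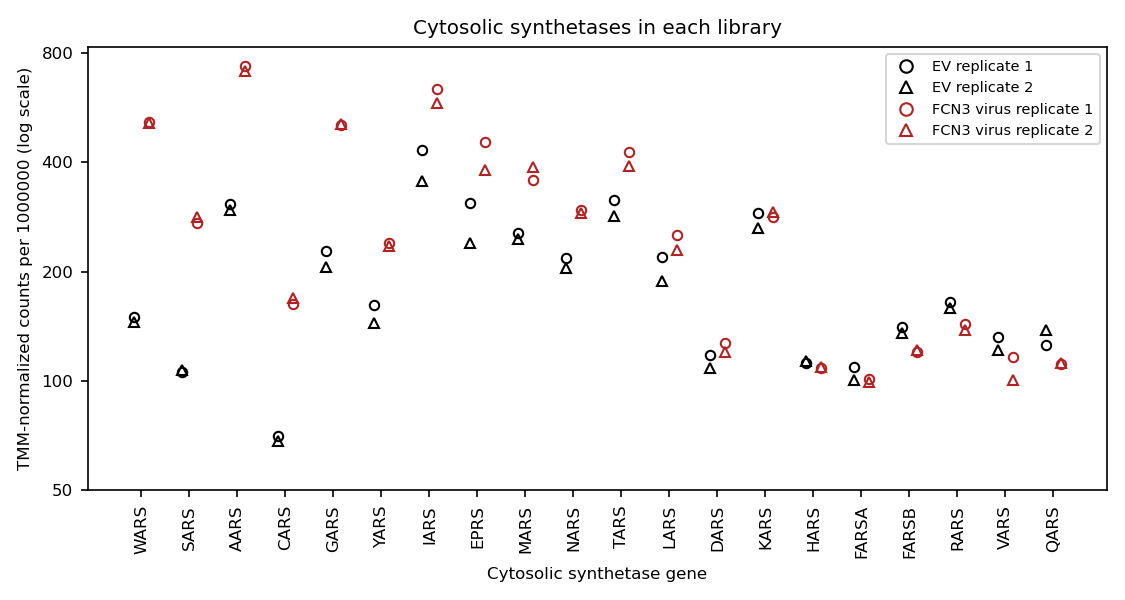
TMM-normalized counts per 1000000 of the 20 cytosolic synthetases (vertical log axis) in each of the 4 libraries, ordered by fitted change (horizontal axis). Black marks are EV and red marks FCN3 libraries; circles are replicate 1 and triangles replicate 2, and WARS, SARS, AARS, CARS and GARS show the widest gaps between the groups.

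Of the 8 synthetases of the multi-synthetase complex, 4 rose, 2 fell and 2 were not called with the block. Of all tested genes 19.1% rose and 17.1% fell in that fit. None was called by edgeR without the block, against 0.738% of all tested genes higher and 0.227% lower. In that fit 5 had an unadjusted p under 0.05. Of these, 3 were higher and 2 lower, against 13.6% and 11.6% of all tested genes. DESeq2 without the block called 3 higher, against 4.52% of the genes with an adjusted p. EPRS, a single chain with glutamyl and prolyl activities, was at 310 and 240 CPM in EV and at 454 and 380 CPM in FCN3 libraries. Its log2 fold change was 0.61 ± 0.05 (edgeR with block, adjusted p = 4.38e-15, and 0.0838 without the block). IARS, the isoleucyl-tRNA synthetase, was at 433 and 356 against 637 and 585 CPM, with a log2 fold change of 0.64 ± 0.05 (edgeR with block, adjusted p = 8.2e-16, and 0.043 without the block). In EPRS and IARS replicate 1 was above replicate 2 in both groups, and 22.2% of all tested genes differed between the replicate numbers at an FDR of 0.01 in the fit with the block.

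MARS, the methionyl-tRNA synthetase, was at 255 and 247 CPM in EV and at 357 and 388 CPM in FCN3 libraries, a log2 fold change of 0.57 ± 0.05 (edgeR with block, adjusted p = 8.36e-14, and 0.0227 without the block). Its annotated span overlaps that of DDIT3 on the opposite strand by 982 bases. DDIT3, a transcription factor gene of the ER stress response, went from 6.92 and 7.89 CPM to 155 and 143 CPM. No stretch of at least 100 bases was shared by MARS and DDIT3 transcripts at 97% identity or more. MARS also overlaps ARHGAP9 on the opposite strand by 13370 bases, and their transcripts share 209 bases. The kit was stranded but the strand setting of the counting is not given in the sources used here. The part of DDIT3 or ARHGAP9 reads in the MARS value was not tested.

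LARS, the leucyl-tRNA synthetase, rose by 0.24 from 220 and 189 to 253 and 229 CPM with the block, a call that DESeq2 with the block did not make. QARS, the glutaminyl-tRNA synthetase, was at 125.5 and 138 against 112 and 112 CPM and fell by 0.23. RARS, the arginyl-tRNA synthetase, was at 166 and 158 against 144 and 138 CPM and fell by 0.20. Both falls were called in the edgeR fit with the block, and not without it or by DESeq2. KARS, which encodes both lysyl-tRNA synthetases, was at 291 and 264 against 282 and 292 CPM, and its groups overlapped. DARS, the aspartyl-tRNA synthetase, was at 118 and 108 against 127 and 120 CPM, with a log2 fold change of 0.13 that was not called.

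The median log2 fold change was 0.18 in the 8 genes of the complex and 0.56 in the 12 other cytosolic genes, a difference of 0.37. The median of the complex was 0.281 without EV replicate 1, 0.0905 without EV replicate 2 (both fits without the block) and 0.08 on the log2(TPM + 0.1) scale. Of those 12 genes 8 rose and 2 fell with the block, and 5 rose without it. By catalytic fold, the 10 class I enzymes held 7 that rose and 3 that fell, with a median of 0.59. The 10 class II enzymes held 5 that rose, 1 that fell and 4 that were not called, with a median of 0.29. Of all tested genes 19.1% rose and 17.1% fell with the block, and 0.738% rose without it. No test was made between these groups of genes.

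Of the 3 scaffold genes edgeR and DESeq2 called 0, with or without the block. With the block edgeR called 19.1% of all tested genes higher and 17.1% lower, and without it 0.738% and 0.227%. For DESeq2 these shares were 8.45% and 8.21% with the block and 4.52% and 3.42% without it. In the edgeR fit with the block 1 (AIMP1) was higher and 0 lower at an unadjusted p under 0.05. Of all tested genes 27.4% were higher and 25% lower at that p. AIMP1 was at 61.0 and 54.8 CPM in EV and at 61.9 and 66.4 CPM in FCN3 libraries (log2 fold change 0.14). AIMP2 was at 60.3 and 61.8 against 58.6 and 59.2 CPM (log2 fold change -0.05). EEF1E1 was at 34.5 and 30.9 against 31.3 and 30.7 CPM (log2 fold change -0.08), and shares 395 bases of transcript with the read-through gene EEF1E1-MUTED, which is listed at 0 in every library.

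Of the 16 mitochondrial synthetases none rose, 2 fell and 14 were not called by edgeR with the block, and without it none was called. Of all tested genes 19.1% rose and 17.1% fell with the block, and 0.738% and 0.227% without it. At an unadjusted p under 0.05, 6 were lower and 0 higher with the block (25% and 27.4% of all tested genes). Without it 1 was lower and 0 higher (11.6% and 13.6%). DESeq2 with the block called 2 lower and 0 higher, against 8.21% and 8.45% of the genes with an adjusted p. Without the block it called 0, against 3.42% lower and 4.52% higher. The median log2 fold change was -0.04. The FCN3 libraries lay above the EV libraries in 2 genes and below in 5, and the groups overlapped in 9. Over all tested genes 28% lay above and 26.5% below. EARS2, the mitochondrial glutamyl-tRNA synthetase, was at 78.8 and 71.3 CPM in EV and at 56.6 and 54.2 CPM in FCN3 libraries. It fell by 0.44 ± 0.06 on the log2 scale (edgeR with block, adjusted p = 3.99e-08, and 0.0571 without the block). IARS2, the mitochondrial isoleucyl-tRNA synthetase and the most abundant of the 16 per length, was at 303 and 256 against 251 and 219 CPM and fell by 0.25.

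The uncalled mitochondrial genes spread on both sides of zero. MARS2 was at 20.8 and 20.6 against 18.0 and 17.3 CPM (log2 fold change -0.23). SARS2 was at 41.4 and 55.0 against 37.9 and 46.0 CPM, with replicate 2 the higher library in both groups (log2 fold change -0.19). PARS2, the lowest member, was at 6.31 and 7.11 against 7.61 and 7.69 CPM (log2 fold change 0.21). WARS2, the mitochondrial counterpart of WARS, was at 12.2 and 10.3 against 11.7 and 11.7 CPM (log2 fold change 0.04). SE values were wider in these low genes, up to 0.135 in PARS2 and 0.112 in WARS2.

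Levels per transcript length, in TPM, allow genes to be compared with each other. KARS was the highest cytosolic member in EV, at 284 and 257 TPM, and was at 254 and 267 TPM in FCN3 libraries. AARS, at 177 and 169 TPM in EV, was the highest in FCN3 libraries at 392 and 385 TPM, followed by WARS (349 and 353 TPM) and GARS (331 and 339 TPM). The sum over the 20 cytosolic genes was 2680 and 2467 TPM in EV and 3651 and 3639 TPM in FCN3 libraries. Over the 16 mitochondrial genes the sum was 549.4 and 514.0 TPM in EV and 456 and 451 TPM in FCN3 libraries. On the log2(TPM + 0.1) scale the median change of all tested genes lay 0.10 below that in normalized counts, a shift that enters both sums.

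Ratios within a library are free of that shift. Cytosolic genes were set against the mitochondrial member for the same amino acid in 17 pairs, in which EPRS and FARS2 each occur more than once. DARS, GARS, KARS and QARS have no such partner among the members and are in no pair. The TPM ratio was higher in both FCN3 libraries than in both EV libraries in 13 pairs, lower in 3 and overlapping in 1. The median change was 0.49 on the log2 scale. No such share was made for ratios of other genes. Of single tested genes, in normalized counts, 28% lay above and 26.5% below. Some of the 13 shifts were small: HARS/HARS2 went from 2.07 and 2.14 to 2.32 and 2.20, with neither gene called. WARS exceeded WARS2 by 13.2 and 15.1 times in EV and by 46.8 and 46.4 times in FCN3 libraries. The AARS/AARS2 ratio went from 19.0 and 19.9 to 47.4 and 47.9. SARS/SARS2 went from 2.62 and 2.02 to 7.45 and 6.39, and CARS/CARS2 from 1.19 and 1.20 to 2.93 and 3.0. In IARS/IARS2 the pair was near equality in EV, at 1.13 and 1.10, and at 2.0 and 2.11 in FCN3 libraries, IARS being higher and IARS2 lower.

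The 3 pairs with a lower ratio were FARSA/FARS2, FARSB/FARS2 and RARS/RARS2. RARS/RARS2 went from 4.31 and 3.77 to 3.37 and 3.13, and FARSB/FARS2 from 8.33 and 10.3 to 7.30 and 7.56. VARS/VARS2 overlapped, at 6.39 and 4.49 against 5.33 and 3.50, replicate 1 being higher in both groups. With 2 libraries against 2, an exact two-sided permutation test of a ratio cannot go below p = 0.33, so none was made.

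**Figure D3:**
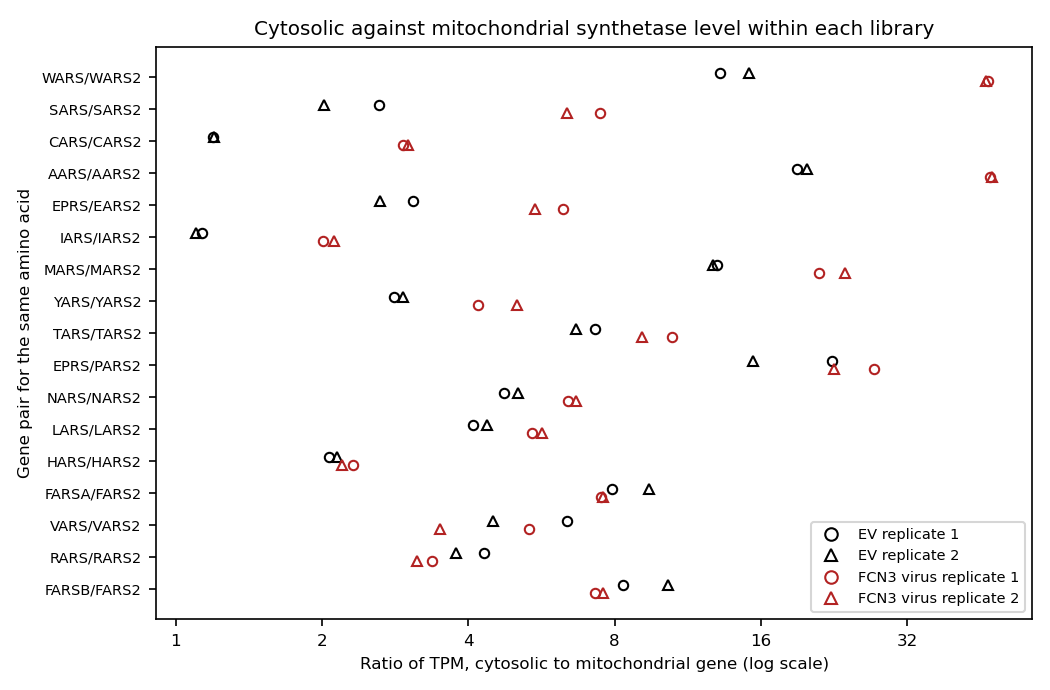
Ratio of TPM of the cytosolic to the mitochondrial gene for the same amino acid (horizontal log axis) in 17 pairs (vertical axis), ordered by the mean change. Black marks are EV and red marks FCN3 libraries; circles are replicate 1 and triangles replicate 2, and the red marks lie to the right of the black in 13 pairs.

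The 5 cytosolic members with a TGATGNAA match all rose. They were 5 of the 10 cytosolic genes with a promoter in the table that rose, and the 6 cytosolic genes with a promoter that did not rise held no match in this window. Of all 35116 promoters 3.62% held a match, of the 33 members 18.2%, and of the 14 mitochondrial members 1. At the share of all promoters most sets of 6 would hold no match, so its absence in those 6 genes does not set them apart. The match of AARS, IARS, MARS and NARS was to TGATGCAA, found in 0.866% of all promoters. GARS holds TTTCATCA, which matches TGATGNAA alone. The matches of AARS, GARS, IARS and MARS lie on the strand opposite to the gene, and those of NARS and YARS2 on the gene's strand. YARS2 held the mitochondrial match and was at 39.1 and 33.5 against 38.9 and 31.8 CPM (log2 fold change -0.04, not called). TGACGTGG was found in 0.729% of all promoters.

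WARS and SARS, the members that rose most, had a promoter in the table and no match to either motif in it. The table's starts of WARS and SARS lie 980 and 25 bases inside the outermost start of each gene in RefSeq. A match in these letters is a description and was not shown to be bound. ATF4 mRNA was at 273 and 297 CPM in EV and at 413 and 457 CPM in FCN3 libraries. ASNS, the asparagine synthetase gene and a known ATF4 target, was at 60.4 and 60.4 against 251 and 272 CPM, a log2 fold change of 2.11. HSPA5, the ER chaperone BiP, rose by 3.19, TRIB3 by 2.70 and CHAC1 by 3.50 on the log2 scale in the same fit.

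**Figure D4:**
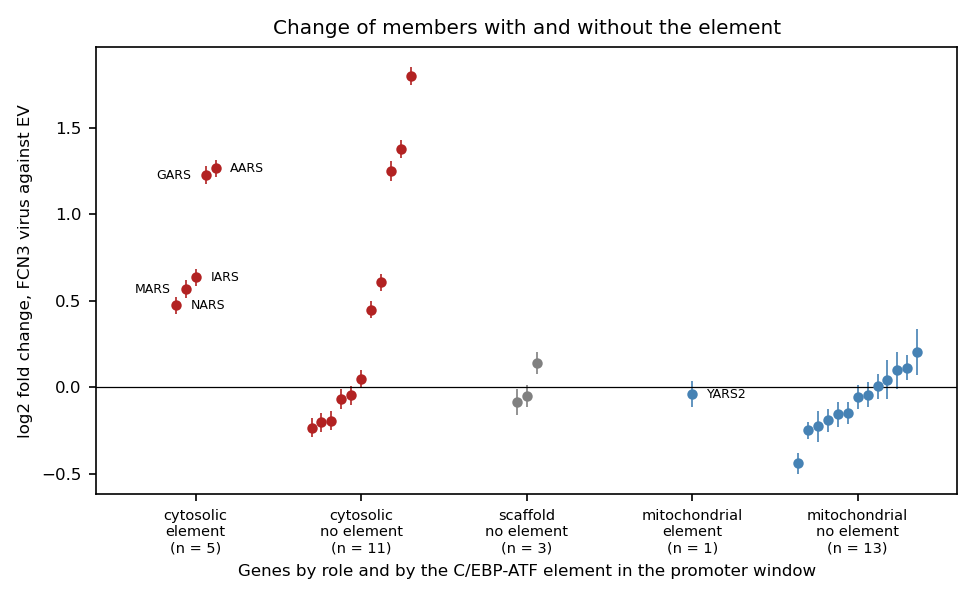
Fitted log2 fold change ± SE (vertical axis) of the 33 members with a promoter in the table, by role and by presence of the C/EBP-ATF element core (horizontal axis). The 5 cytosolic genes with the element lie between 0.47 and 1.27, and the 11 without it between -0.23 and 1.80.

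Among 19 other genes of tRNA charging and its sensing, 5 rose, 2 fell and 12 were not called with the block. Of all tested genes 19.1% rose and 17.1% fell in that fit. At an unadjusted p under 0.05, 7 were higher and 5 lower with the block (27.4% and 25% of all tested genes). Without the block edgeR called none, against 0.738% of all tested genes higher and 0.227% lower. In that fit 5 were higher and 2 lower at an unadjusted p under 0.05 (13.6% and 11.6%). DESeq2 without the block called 2 higher and 0 lower, against 4.52% and 3.42% of the genes with an adjusted p. XPOT, which exports tRNA from the nucleus, was at 248 and 204 CPM in EV and at 393 and 361 CPM in FCN3 libraries, a rise of 0.74. TARSL2, a further threonyl-tRNA synthetase, was at 15.4 and 17.9 against 24.7 and 29.1 CPM, a rise of 0.69. IMPACT, an inhibitor of GCN2, rose by 0.63 from 28.8 and 23.8 to 42.9 and 38.8 CPM. DTD1, a D-aminoacyl-tRNA deacylase, rose by 0.37 from 89.7 and 85.8 to 113 and 113 CPM.

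GATC, a subunit of the mitochondrial glutamyl-tRNA amidotransferase, fell by 0.38 from 73.1 and 71.3 to 55.9 and 55.0 CPM. EIF2AK4, which encodes GCN2, was at 87.7 and 81.1 against 93.8 and 81.4 CPM and was not called. GCN1L1, its activator, was at 307 and 281 against 282 and 265 CPM and was not called.

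WARS is also known as an interferon-induced gene, so a list of 10 such genes is given beside it. With the block 2 rose (MX1 and IFIT3), 1 fell and 7 were not called, against 19.1% and 17.1% of all tested genes. At an unadjusted p under 0.05, 5 were higher and 1 lower with the block (27.4% and 25% of all tested genes). The FCN3 libraries lay above the EV libraries in 4 and below in 2 (28% and 26.5% of all tested genes). The median log2 fold change of the list was 0.32. Without the block edgeR called none, against 0.738% of all tested genes higher and 0.227% lower. In that fit 1 was higher and 1 lower at an unadjusted p under 0.05 (13.6% and 11.6%). DESeq2 without the block called 0 higher and 1 lower, against 4.52% and 3.42% of the genes with an adjusted p. MX1 was at 0.796 and 1.43 CPM in EV and at 1.39 and 4.52 CPM in FCN3 libraries, and its groups overlapped. IFIT3 was at 3.16 and 2.03 against 5.98 and 6.79 CPM. GBP1 and GBP2, which mark the interferon gamma response, were at 0.192 to 0.657 CPM in all 4 libraries.

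RSEM reports for each gene the mean length of its transcripts weighted by their abundance, which moves with isoform use. Of the members 14 had more than 1 transcript in the tables and 25 had 1. The length did not overlap between the groups in 6 of the 14, against 34.1% of tested genes with more than 1 transcript, so the members' share is near the background. WARS was longer in both FCN3 libraries by 0.76% in the mean and SARS shorter, its length changing by -0.98%. The widest changes were 6.86% in EEF1E1 and -3.29% in NARS2.

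Some members share sequence with a neighbour. HARS and HARS2 lie head to head with 108 bases of overlap on opposite strands, and HARS shares 1090 bases with WDR55 on the opposite strand. On the same strand, EARS2 shares 204 bases of transcript with GGA2, HARS2 shares 152 with ZMAT2 and HARS 121 with DND1, and the values of these genes are uncertain to that extent. On the opposite strand, WARS shares 213 bases with WDR25 and MARS 209 with ARHGAP9, among others.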

How the data were processed

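Per the labels and the study's methods, the authors made stranded mRNA libraries, removed adapters and poor reads, aligned with STAR 2.6.1d against hg19 and estimated abundance with RSEM. The deposited expected counts are estimated counts per gene, not normalized and not always whole. The deposited TPM values were normalized by the authors' RSEM run for transcript length and depth, and the deposited length column is in bases. FPKM was not used. The annotation and strand setting are not given in the sources used here.

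Expected counts were rounded and tested in R 4.3.3 with edgeR 4.0.16 (TMM, filterByExpr, quasi-likelihood test, Benjamini-Hochberg over 14099 genes, FDR 0.01), with the replicate number as a block. CPM values are TMM-normalized and unblocked, and log2 fold changes are fitted. The block leaves 1 residual degree of freedom a gene, and the spread is pooled across genes. A count floor of 3 equals 0.084 to 0.183 CPM and covers counting error only.

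The replicate numbers come from the labels alone, which do not say what a number shares. The differences between replicates 2 and 1 correlated between the groups across 8310 genes with an average log2 CPM above 4 (Pearson r = 0.806, genes not being independent). With 2 pairs both fits are therefore given. Alternatives used DESeq2 1.42.0, limma 3.58.1, other normalizations, filters, thresholds and each library left out. Scripts were tested on simulated data.

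Members and lists, including class, complex, pair, motif and other pathway lists, were chosen with earlier results of these data known. All members may be named. Called members whose log2 fold change was 0.5 or more in size get full statistics, and called genes of the other charging list, FCN3, ATF4, DDIT3, TRIB3, ASNS, CHAC1, HSPA5 and the interferon list are also named, except 3 genes of the other charging and interferon lists whose results are not reported here. Uncalled members, EIF2AK4 and GCN1L1 were picked as examples after their values were seen. Promoters are from RefSeq (GRCh38.p14), and gene places are from GENCODE on GRCh37. Shared transcript stretches were found with blastn 2.17.0 in GENCODE transcripts.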

Additional observations from a re-analysis of the deposited data

How the results depend on the processing

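No called member changed sign under any alternative, and of the 21 members not called 12 did so under at least 1, the changes of opposite sign being at most 0.14 in size. With the replicate block, which rests on the labels' numbers alone, 12 members rose and 6 fell. With no replicate block 5 rose and 0 fell, the 5 being cytosolic, with 0 cytosolic and 0 mitochondrial genes lower and 0 other charging genes called in either direction. DESeq2 with the block called 2 members lower, 0 of them cytosolic, and without the block 0 members, 0 cytosolic, 0 mitochondrial and 0 other charging genes lower and 2 other charging genes higher. An added minimum change of 0.5 left 0 members, 0 cytosolic, 0 mitochondrial and 0 other charging genes lower. An FDR of 0.05 gave 4 mitochondrial genes lower. On the TPM scale, limma with a pseudocount of 1 or of 0.1 called 4 mitochondrial, 1 scaffold and 4 other charging genes lower, and gave medians of 0.359 and 0.361 (cytosolic), -0.153 and -0.155 (scaffold), -0.138 and -0.142 (mitochondrial), 0.0793 and 0.0802 (complex) and 0.451 and 0.454 (other cytosolic), on a scale whose median over all genes lay 0.087 and 0.10 lower. RLE factors, omission of FCN3, limma-voom and at least 10 counts in every library left these counts as they were, and with no filter beyond 1 count in total FARSB was not called. The adjusted p-values moved by many powers of 10. That of AARS (edgeR with block) was 3.09e-28 in the main fit, 4.69e-119 with RLE factors and 9.56e-11 with no such filter.

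With 3 libraries the block leaves no residual degree of freedom, so each library was left out without the block. The number of members and of cytosolic genes that rose was then 5 in every case, and 0 members, cytosolic, mitochondrial or other charging genes fell and 0 other charging genes rose. The median was 0.395 to 0.534 (cytosolic), -0.0593 to 0.0116 (scaffold), -0.0741 to 0.00286 (mitochondrial), 0.0905 to 0.281 (complex) and 0.486 to 0.633 (other cytosolic), and the difference between the last 2 was 0.342 to 0.419. The scaffold and mitochondrial medians were above zero only without EV replicate 1, and the cause was not tested. The stricter element core was held by 4 members in place of 6. Depth limits the low mitochondrial genes, whose SE reached 0.135, and with 2 libraries a group differences between cultures and between libraries cannot be told apart.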

Other observations

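With the replicate number as a term, 8 members differed between replicate 2 and replicate 1 at an FDR of 0.01 (edgeR with block), a share near the 22.2% of all tested genes. On the log2 scale, replicate 2 minus replicate 1 was -0.31 in EPRS, -0.20 in IARS, -0.18 in LARS, -0.22 in IARS2, -0.26 in LARS2 and -0.26 in YARS2. The same difference was 0.35 in SARS2 and 0.41 in VARS2. In VARS2, the mitochondrial valyl-tRNA synthetase, the libraries were at 17.0 and 22.6 CPM in EV and at 17.8 and 23.8 CPM in the FCN3 group, so that it followed the replicate number in both groups (log2 fold change between the groups 0.07, not called). None of SARS, WARS, AARS, CARS and GARS differed between the replicate numbers in this test, where their values lay between -0.07 and 0.04.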
